A study of Mus musculus with 4 samples.

Results

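The genes described here encode glucose transporters, the enzymes of glycolysis, lactate formation, the pyruvate dehydrogenase step and the pentose phosphate pathway, and the enzymes of the tricarboxylic acid (TCA) cycle. They were taken by gene symbol from a list of 43, using probe sets annotated with exactly 1 symbol and, for each gene, the probe set with the highest mean over the arrays. Of the 43, 39 were matched among 19938 genes, and 38 passed the intensity filter and were tested. Gpi1, Eno1 and G6pdx had no probe set under their symbols in the annotation used, and Gapdh was listed only on probe sets shared with other symbols, so these 4 are not analysed here. Hk2 was too dim for the filter and is given by its values.

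The study compared regulatory T (Treg) cells, the Foxp3-dependent CD4 T cells that restrain immune responses, with and without CYLD, a deubiquitinase that limits NF-kB signalling. RNA of YFP-positive cells was hybridised to 4 arrays. The CYLD KO arrays, 2 in number, came from C57Bl6 Cyld fl/fl Foxp3-yfp-cre mice, and the 2 WT arrays from C57Bl6 Cyld+/+ Foxp3-yfp-cre mice. Mice of both groups carried the Cre and YFP transgene expressed from Foxp3 and were 6 to 8 weeks old. The design directs the deletion of Cyld to cells that have expressed Foxp3, and where deletion occurred was not measured here. The labels give the tissue as spleen with lymph nodes in 1 place and as spleen alone in another. They do not say whether replicates were separate mice, so p-values measure only the spread between these samples, which may be partly technical.

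Glycolysis splits glucose to pyruvate in the cytosol and yields ATP quickly. Pyruvate is then either reduced to lactate and exported, or carried into mitochondria, where pyruvate dehydrogenase turns it into acetyl-CoA for the TCA cycle. The pentose phosphate pathway branches off after the first phosphorylation and supplies NADPH and ribose for nucleotides. Activated effector T cells are known for high glycolysis, while Treg cells are known to rely more on mitochondrial oxidation and to raise glycolysis when they proliferate.

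Promoter sequence is shown for the member that rose (Tpi1), the member that fell (Pdk1), and Ldha and Pgk1. Ldha and Pgk1 are textbook targets of the hypoxia factor HIF-1, and their probe sets did not pass the test. No gene is shown here as a non-target of HIF-1. Each window runs from 250 bases before to 50 bases after a RefSeq start (build GRCm38.p6), 5′ to 3′ on the gene's strand. Capitals mark ACGTG and GCGTG on either strand, the core letters of HIF response elements. Where a gene had several windows, that of the 5′-most start is given.

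Tpi1 (chr6:124814109-124814408, minus strand): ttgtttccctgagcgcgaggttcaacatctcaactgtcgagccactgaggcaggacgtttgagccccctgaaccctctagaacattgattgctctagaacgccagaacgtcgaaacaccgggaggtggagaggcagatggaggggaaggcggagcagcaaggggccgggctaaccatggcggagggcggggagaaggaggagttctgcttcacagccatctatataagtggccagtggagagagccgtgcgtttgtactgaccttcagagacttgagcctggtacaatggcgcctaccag

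Pdk1 (chr2:71872974-71873273, plus strand): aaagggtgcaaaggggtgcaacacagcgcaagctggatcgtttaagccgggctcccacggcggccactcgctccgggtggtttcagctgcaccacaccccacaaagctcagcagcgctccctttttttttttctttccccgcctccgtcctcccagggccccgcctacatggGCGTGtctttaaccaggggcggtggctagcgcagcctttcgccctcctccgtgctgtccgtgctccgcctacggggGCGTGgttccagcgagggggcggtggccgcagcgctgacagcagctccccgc

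Ldha (chr7:46845554-46845853, plus strand): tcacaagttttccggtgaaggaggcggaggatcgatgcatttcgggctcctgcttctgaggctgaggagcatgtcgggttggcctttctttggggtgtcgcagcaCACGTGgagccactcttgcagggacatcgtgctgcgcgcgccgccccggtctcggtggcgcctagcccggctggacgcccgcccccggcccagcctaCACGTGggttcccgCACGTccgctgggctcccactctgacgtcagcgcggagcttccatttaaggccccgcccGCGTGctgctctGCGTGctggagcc

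Pgk1 (chrX:106186850-106187149, plus strand): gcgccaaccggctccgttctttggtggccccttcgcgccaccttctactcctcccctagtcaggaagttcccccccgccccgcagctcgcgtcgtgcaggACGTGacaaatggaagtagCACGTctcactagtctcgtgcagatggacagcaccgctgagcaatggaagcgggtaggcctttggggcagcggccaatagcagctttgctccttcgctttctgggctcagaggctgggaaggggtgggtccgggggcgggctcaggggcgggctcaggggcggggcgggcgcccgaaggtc

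The Tpi1 window held neither motif and the Pdk1 window held GCGTG 2 times. The Ldha window held ACGTG 5 times and GCGTG 2 times; CACGTG, the E-box bound by MYC, occurred 2 times there, and each occurrence holds ACGTG on both strands. The Pgk1 window held ACGTG 2 times. RefSeq windows were matched for 37 of the 39 measured members. ACGTG was present in a window of 15 of these 37 genes (40.5%), against 21.8% of all 27025 genes, and GCGTG in 24 (64.9%), against 35.2%. CACGTG was present in 3 (8.11%), against 8.09% of all genes. Genes differ in their number of windows and in base composition, and neither was matched here.

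Cyld itself read 284 and 218 on the CYLD KO arrays and 524 and 502 on the WT arrays, a log2 difference of -1.04 ± 0.17 (SE) with an adjusted p of 8.96e-08 in limma. The labels do not give the deleted part of the gene, so the remaining signal does not measure deletion. The defining T cell and Treg genes were well above the dimmest values on all arrays: the lineage factor Foxp3 read 1697 and 1553 on CYLD KO and 2016 and 1881 on WT arrays, and the T cell receptor subunit Cd3e 3615 and 2978 on CYLD KO and 3240.1 and 3264 on WT arrays. Il2ra, the interleukin-2 receptor alpha chain CD25, read 1914 and 1809.8 on CYLD KO and 2579 and 2499 on WT arrays, lower without overlap but not past the test (adjusted p = 0.0831), and Cd4 2169 and 1974 on CYLD KO and 2033 and 1818 on WT arrays. Array medians lay between 99 and 105. The number of arrays limits the precision of every value.

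Calls among enzyme genes of central carbon metabolism were few by the test of CYLD KO against WT, as they were among all tested genes. Of 38 tested members, 1 was higher (2.63%) and 1 was lower (2.63%) at an adjusted p under 0.05, against 4.79% of all 13956 tested genes higher, 3.5% lower and 8.3% in either direction. Tpi1, triosephosphate isomerase of upper glycolysis, rose 1.5-fold, and Pdk1, the kinase that switches off pyruvate dehydrogenase, fell 1.74-fold. The median absolute log2 fold change was 0.16 over the tested members and 0.173 over all tested genes. For 25 of the 38 members (65.8%) the 95% interval of the change lay within 1.5-fold in either direction, as it did for 67.5% of all tested genes. With each gene's own variance in place of the pooled one, neither passed (adjusted p = 0.214 for Tpi1 and 0.372 for Pdk1), nor did any other gene in the table. Every interval reaches 0.332 to each side on the log2 scale, because limma pooled the variance over all genes, and the smallest change called in the whole table was 1.4-fold.

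Read by whether the groups overlapped, 16 of the 38 tested members had both CYLD KO arrays above both WT arrays (42.1%), against 22.5% of all tested genes. For 8 members (21.1%) both CYLD KO arrays lay below, against 26.2% of all tested genes. Among genes brighter than the median, 15 of 35 members lay above (42.9%), against 24.2% of such genes, and 8 below (22.9%), against 28.5%. After quantile normalization 17 of the 38 lay above (44.7%) and 6 below (15.8%), against 24.9% and 24.3% of all tested genes. With array medians set equal 14 lay above (36.8%) and 7 below (18.4%), against 24.2% and 23.2%. Most of these separations were small: of the 16 members above, only Tpi1 passed the test.

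**Figure D1:**
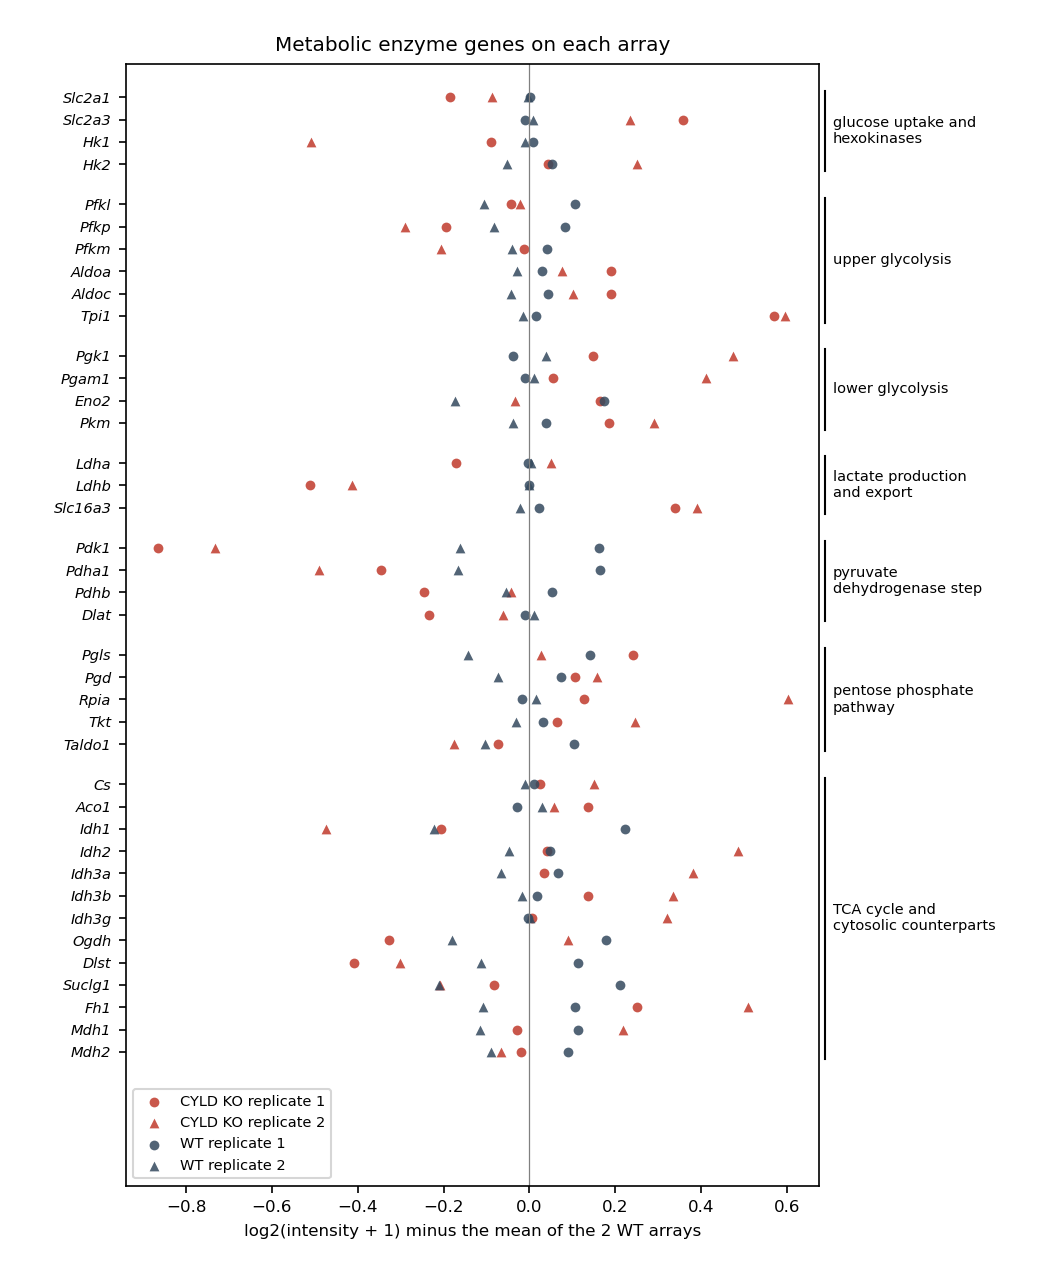
Each of the 39 measured genes on each array, as log2(intensity + 1) minus the mean of the 2 WT arrays; red marks CYLD KO, dark grey WT, circles replicate 1 and triangles replicate 2. Tpi1 and Pdk1 stand apart from WT on both CYLD KO arrays, while Rpia, Pgk1, Pgam1 and several isocitrate dehydrogenase genes lie farther right on CYLD KO replicate 2 than on replicate 1.

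Glucose uptake and its trapping gave no call in either direction, while 8.3% of all tested genes were called. Slc2a1, the glucose transporter GLUT1 that T cells raise on activation, read 430.1 and 461 on CYLD KO arrays and 490.0 and 488 on WT arrays (log2 fold change -0.14, 95% interval -0.47 to 0.20). Slc2a3, the high-affinity transporter GLUT3, read 577 and 529 on CYLD KO arrays and 447 and 453 on WT arrays (log2 fold change 0.30, adjusted p = 0.323). The arrays of the groups did not overlap for either transporter, GLUT1 lying lower and GLUT3 higher in CYLD KO.

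The hexokinases phosphorylate glucose and so hold it in the cell. Hk1 gave readings that depended on the probe set. Its brighter probe set, tied in the annotation to a single sequence record outside RefSeq, read 2311 and 1728 on CYLD KO arrays and 2472 and 2442 on WT arrays (log2 fold change -0.30). Its other probe set, annotated to the RefSeq transcripts, read 1344 and 1357 on CYLD KO arrays and 1081 and 1127 on WT arrays (log2 fold change 0.29). By its number the brighter probe set falls between those of Tkt and Pdhb, both on chromosome 14, while Hk1 lies on chromosome 10. The other falls between those of Cs and Pfkl, both on chromosome 10. Whether the brighter probe set measures Hk1 was not tested, so the direction of Hk1 is not settled. Elsewhere in the text and figures, Hk1 means the brighter probe set unless stated. Hk2, the hexokinase induced in activated cells, read 75 and 86.8 on CYLD KO arrays and 75.5 and 70.1 on WT arrays, near the low end of the scale in both groups.

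Upper glycolysis carries glucose 6-phosphate to triose phosphates. There 1 of 6 tested members rose and 0 fell, against 4.79% and 3.5% of all tested genes. That member was Tpi1, whose product interconverts the triose phosphates so that both products of the split sugar can continue down the pathway. Tpi1 read 654 and 665 on CYLD KO arrays and 445 and 435 on WT arrays. The replicates of each group lay close together and the groups were well separated. Tpi1 averaged 659 ± 8.1 in CYLD KO and 439.9 ± 6.74 in WT (SD, n = 2 each), with a log2 difference of 0.58 ± 0.17 (SE) and an adjusted p of 0.0109 in limma. Its adjusted p was 0.199 without WT replicate 1 and 0.224 without WT replicate 2, at log2 fold changes of 0.60 and 0.57, so the size hardly moved while the call was lost.

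The steps before Tpi1 showed values near WT. The phosphofructokinases commit sugar to glycolysis, and their genes all had fold changes below 0, apart from Pfkl after quantile normalization and without WT replicate 1. Pfkp, the platelet type, read 337 and 315 on CYLD KO arrays and 408 and 364 on WT arrays, without overlap (log2 fold change -0.24, adjusted p = 0.442). Pfkl, the liver type, and Pfkm, the muscle type, had log2 fold changes of -0.03 and -0.11, with overlapping groups. The aldolases split fructose 1,6-bisphosphate. Aldoa read 1719.9 and 1588 on CYLD KO arrays and 1537 and 1476 on WT arrays, and the dim Aldoc 89.6 and 84.2 on CYLD KO arrays and 80.8 and 76.1 on WT arrays. Both were slightly higher in CYLD KO without overlap, with log2 fold changes of 0.13 and 0.15 that did not pass.

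Lower glycolysis, where ATP is made, had 0 of 4 tested members called, against 8.3% of all tested genes. All 4 fold changes were above 0, with a median log2 fold change of 0.24 against -0.02 over all tested genes. The median was 0.157 without CYLD KO replicate 2 and 0.351 without CYLD KO replicate 1. Pgk1, phosphoglycerate kinase, read 1092 and 1368 on CYLD KO arrays and 959 and 1012 on WT arrays (log2 fold change 0.31, adjusted p = 0.291). Pgam1, phosphoglycerate mutase, read 733 and 938 on CYLD KO arrays and 699.7 and 710.4 on WT arrays (log2 fold change 0.23). Both were highest on CYLD KO replicate 2 and closer to WT on replicate 1. Pkm, pyruvate kinase of the last step, was more even, at 830.2 and 893 on CYLD KO arrays and 749 and 711 on WT arrays (log2 fold change 0.24, adjusted p = 0.451). The other probe sets of Pgk1, Pgam1 and Pkm had log2 fold changes of 0.31, 0.28 and 0.14, in the same direction. Those of Pgk1 were identical to each other on every array, as were those of Pgam1, so they are not separate measurements. Pgam1 lies on chromosome 19, but by number the probe set used falls between those of Idh3b on chromosome 2 and Aco1 on chromosome 4. Whether it measures Pgam1 itself was not tested. The other Pgam1 probe sets read 639 and 819 on CYLD KO arrays and 575 and 618 on WT arrays. Eno2, the neuronal enolase, was dim and its groups overlapped (log2 fold change 0.07). Its sign turned without WT replicate 2 and without CYLD KO replicate 1.

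The lactate genes differed among themselves, and 0 of 3 passed, against 8.3% of all tested genes. Ldhb, the lactate dehydrogenase subunit that favours the use of lactate, read 202 and 216 on CYLD KO arrays and 288 and 288 on WT arrays. Its WT readings were nearly identical and both CYLD KO arrays lay below them (log2 fold change -0.46, 95% interval -0.79 to -0.13, adjusted p = 0.0703). A second, dimmer Ldhb probe set read 143 and 126 on CYLD KO arrays and 167 and 171 on WT arrays (log2 fold change -0.33). Ldhb lies on chromosome 6. By its number the brighter probe set falls between those of Pfkm on chromosome 15 and Pdk1 on chromosome 2. The dimmer one falls between those of Tpi1 on chromosome 6 and Ldha on chromosome 7. Whether the brighter probe set measures Ldhb was not tested. Ldha, the subunit that favours lactate formation, read 1525 and 1779 on CYLD KO arrays and 1714 and 1720.1 on WT arrays, with CYLD KO on both sides of WT (log2 fold change -0.06). Slc16a3, the lactate exporter MCT4, read 197 and 204 on CYLD KO arrays and 158 and 153 on WT arrays, higher without overlap (log2 fold change 0.37, 95% interval 0.03 to 0.70, adjusted p = 0.194).

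At the pyruvate dehydrogenase step 1 of 4 members fell and 0 rose, against 3.5% and 4.79% of all tested genes. All 4 fold changes were below 0, with a median of -0.28. Pdk1 read 165 and 181 on CYLD KO arrays and 337 and 269 on WT arrays. The WT replicates differed from each other more than the CYLD KO replicates did, and both lay above the CYLD KO arrays. Pdk1 averaged 173 ± 11.3 in CYLD KO and 303 ± 48.2 in WT (SD, n = 2 each), or 57% of the WT level, with a log2 difference of -0.80 ± 0.17 (SE) and an adjusted p of 1.02e-04 in limma. Without WT replicate 1 its log2 fold change was -0.64 and its adjusted p 0.142.

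The enzyme that PDK1 inhibits did not pass in any subunit gene. Pdha1, the catalytic E1 alpha subunit that carries the phosphorylated sites, read 386 and 349 on CYLD KO arrays and 551 and 437 on WT arrays, lower without overlap (log2 fold change -0.42, 95% interval -0.75 to -0.09, adjusted p = 0.119). Pdhb, the E1 beta subunit, read 265 and 306 on CYLD KO arrays and 327 and 303 on WT arrays, which overlap. Dlat, the E2 subunit, read 142 and 159.7 on CYLD KO arrays and 165 and 168 on WT arrays. Pdhb and Dlat had log2 fold changes of -0.14 and -0.15. All 4 genes of this step kept a fold change below 0 under each scaling and each left-out array that was tried.

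**Figure D2:**
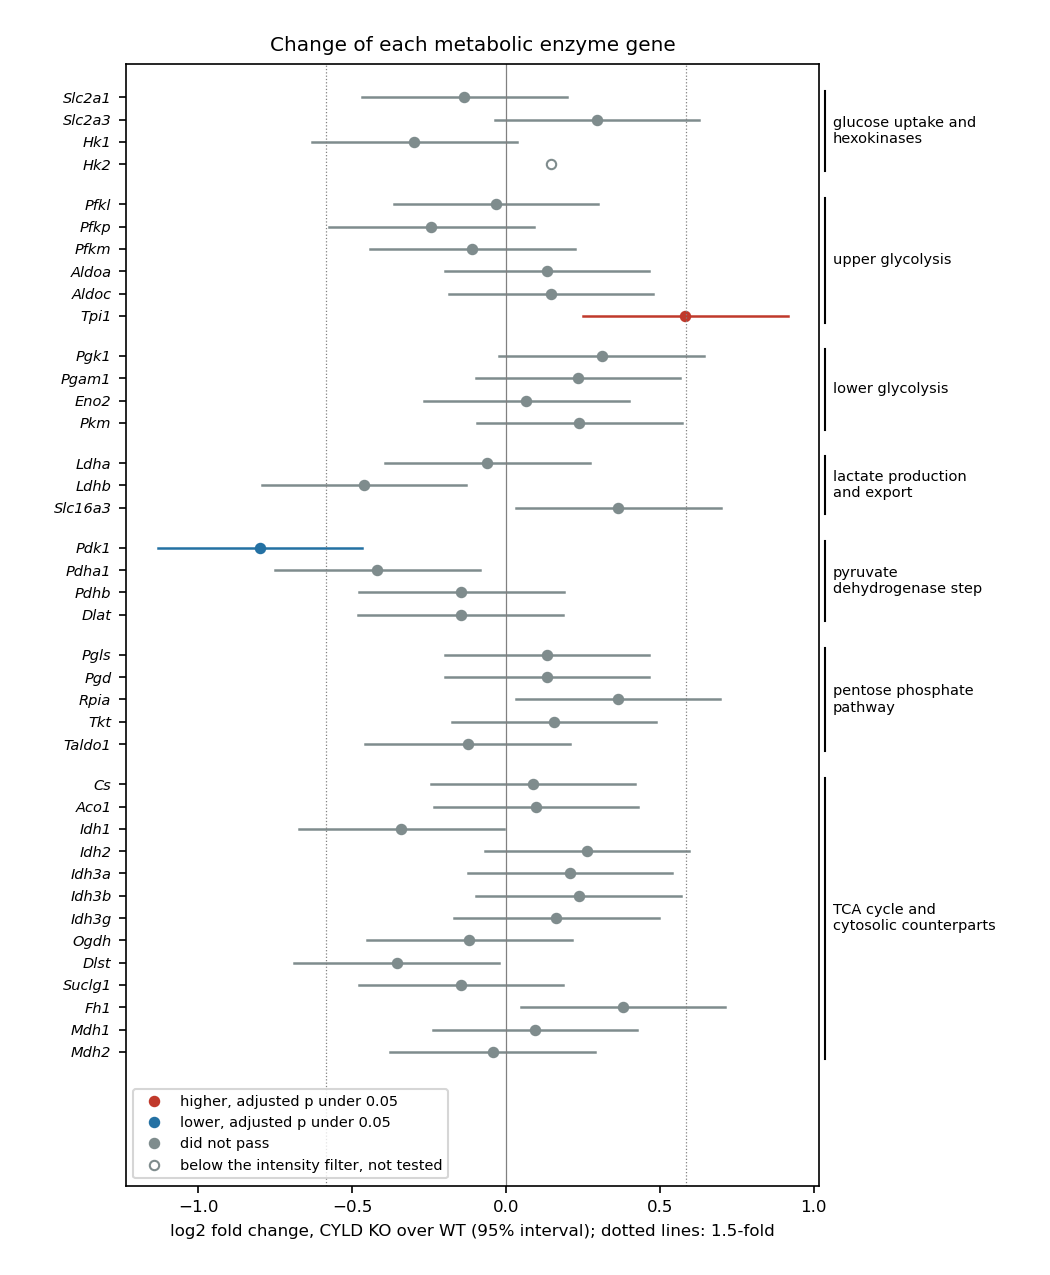
Log2 fold change of each member, CYLD KO over WT, with its 95% interval; red and blue mark the 2 genes past an adjusted p of 0.05, grey those that did not pass, an open circle the untested Hk2, and dotted lines a 1.5-fold change. Tpi1 lies at 0.58 and Pdk1 at -0.80, and the intervals of most other genes include 0.

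In the pentose phosphate pathway 0 of 5 tested members passed, against 8.3% of all tested genes. Their median log2 fold change was 0.13. The median was 0.0594 without WT replicate 2, where Pgls turned below 0, and 0.206 without WT replicate 1. Rpia, ribose 5-phosphate isomerase, which makes the sugar of nucleotides, read 284 and 395 on CYLD KO arrays and 257 and 263 on WT arrays (log2 fold change 0.36, 95% interval 0.03 to 0.70, adjusted p = 0.195). Replicate 2 alone set most of that difference: against the WT mean, Rpia was 0.13 higher on CYLD KO replicate 1 and 0.60 higher on replicate 2, on the log2 scale. Tkt, transketolase of the non-oxidative branch, read 940.2 and 1067 on CYLD KO arrays and 919 and 879.5 on WT arrays (log2 fold change 0.16). Pgd, the NADPH-forming 6-phosphogluconate dehydrogenase, and Pgls, which feeds it, had log2 fold changes of 0.13 and 0.13. Taldo1, transaldolase, stood at -0.12, with its groups overlapping.

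The TCA cycle and its cytosolic counterparts had 0 of 13 members called, against 8.3% of all tested genes. Of the 13, 8 had fold changes above 0 and 5 below, with a median of 0.10. The split was 11 and 2 without WT replicate 1, 9 and 4 without CYLD KO replicate 1, and 7 and 6 without WT replicate 2 or without CYLD KO replicate 2, where the median was 0.00655 in the last case. Fh1, fumarate hydratase, read 259 and 309.7 on CYLD KO arrays and 234 and 202 on WT arrays, higher without overlap (log2 fold change 0.38, 95% interval 0.05 to 0.71, adjusted p = 0.171). Dlst, the E2 subunit of the oxoglutarate dehydrogenase complex, read 218 and 235 on CYLD KO arrays and 313 and 268 on WT arrays, lower without overlap (log2 fold change -0.35, 95% interval -0.69 to -0.02, adjusted p = 0.212). Idh1, the cytosolic NADP-dependent isocitrate dehydrogenase, read 83.7 and 69.3 on CYLD KO arrays and 113 and 82.7 on WT arrays, and these overlap (log2 fold change -0.34).

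The mitochondrial isocitrate dehydrogenase genes had fold changes above 0. Idh2, the mitochondrial NADP-dependent enzyme, read 249 and 340.2 on CYLD KO arrays and 251 and 235 on WT arrays. Idh3a, Idh3b and Idh3g, the subunits of the NAD-dependent enzyme of the cycle, had log2 fold changes of 0.21, 0.24 and 0.16. In all of them CYLD KO replicate 2 was the highest array and replicate 1 lay closer to the WT arrays than to replicate 2. Cs, citrate synthase, which opens the cycle, had a log2 fold change of 0.09, and Aco1, the cytosolic aconitase that also serves as an iron sensor, 0.10. Ogdh, the E1 subunit of the oxoglutarate complex, and Suclg1, a subunit of succinyl-CoA ligase, stood at -0.12 and -0.15 with overlapping groups. Mdh1 and Mdh2, the cytosolic and mitochondrial malate dehydrogenases, stood at 0.10 and -0.04.

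Genes that serve the same reaction were set side by side in 8 pairs, as a description with no test. The difference in log2 fold change, computed within each array, was 0.43 for Slc2a3 minus Slc2a1, -0.40 for Ldhb minus Ldha and 0.60 for Idh2 minus Idh1, and in these 3 the CYLD KO and WT values did not overlap. For Idh2 minus Idh1 the CYLD KO arrays differed from each other by 0.72, more than the difference itself. Ldhb minus Ldha uses the brighter Ldhb probe set, and whether that measures Ldhb was not tested. Pfkl minus Pfkp gave 0.21 and Pfkm minus Pfkp 0.13, also without overlap. Hk2 minus Hk1 gave 0.45 without overlap, with a gap of 0.63 between the CYLD KO arrays and with the Hk1 probe set whose direction is not settled. Aldoc minus Aldoa gave 0.013 and Mdh2 minus Mdh1 -0.14, with overlap. Among all tested genes taken singly, CYLD KO lay above WT without overlap in 22.5% and below in 26.2%. The share over other pairs of genes was not computed.

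The CYLD KO replicates differed from each other in these genes. On CYLD KO replicate 2, 24 of the 38 tested members read higher than on replicate 1 (63.2%), against 46.2% of all tested genes. The TCA list had 9 of its 13 members higher on replicate 2. Proliferation genes, of which Pcna, Mcm5 and Ube2c were the brightest, went with this split. All 26 measured read higher on CYLD KO replicate 2 than on replicate 1. By the test 21 of 26 were higher in CYLD KO and 0 lower, against 4.79% and 3.5% of all tested genes. Pcna was not among the 21 (log2 fold change 0.20, limma adjusted p = 0.539), and its groups overlapped. Medians of the 26 proliferation genes were 0.37 on CYLD KO replicate 1 and 1.10 on replicate 2 above the WT mean (log2 scale). Their part in the enzyme values was not tested. With CYLD KO replicate 1 left out, 3 members were higher (Tpi1, Rpia and Fh1) and 2 lower (Pdk1 and Hk1); with replicate 2 left out, only Tpi1 and Pdk1 passed. Over all 13956 tested genes, 918 were higher and 767 lower without CYLD KO replicate 1, and 492 higher and 386 lower without replicate 2, so the counts of all genes moved the same way.

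**Figure D3:**
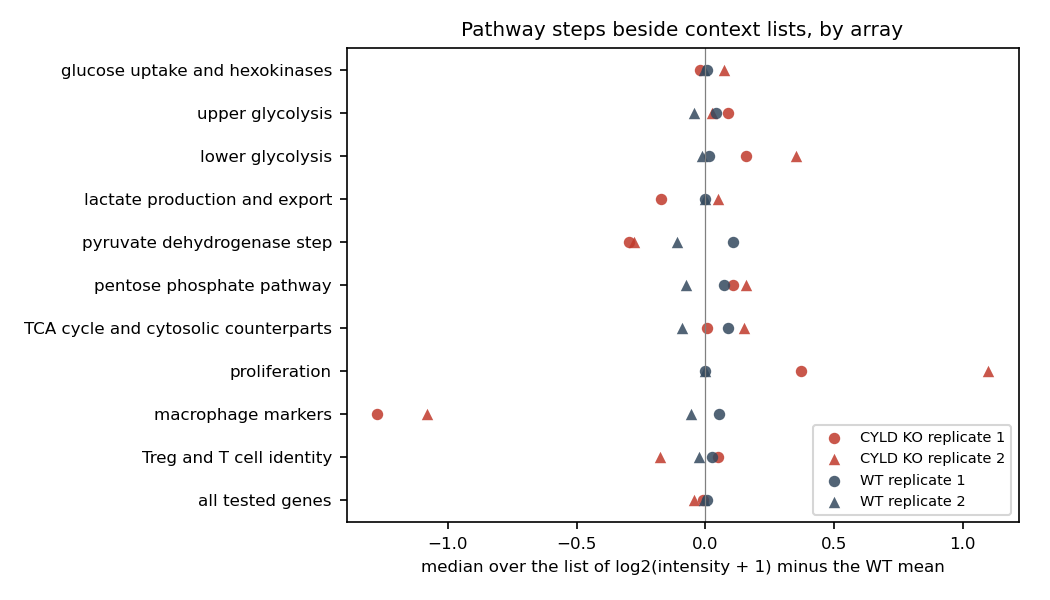
Median over each list of log2(intensity + 1) minus the WT mean, for each array; red marks CYLD KO, dark grey WT, circles replicate 1 and triangles replicate 2. The pathway steps lie within about the range from -0.30 to 0.35, while the proliferation list reaches 1.10 on CYLD KO replicate 2 and macrophage markers lie below -1 on both CYLD KO arrays.

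Markers of other cells were compared on the same arrays. Of 12 tested macrophage markers, 11 were lower and 0 higher, against 3.5% and 4.79% of all tested genes. The summed intensity of the 15 measured was 1325 and 1642 on CYLD KO arrays and 3227 and 2987 on WT arrays. The brightest of them, Vcam1, Sirpa and Cd68, were all lower. None of the markers is at 0 on this intensity scale. In bulk RNA fewer cells of a type and less RNA per cell cannot be told apart, and the part of macrophage RNA in the enzyme values was not tested. B cell markers had 0 of 4 tested members called, and log2 fold changes of the brightest were -0.45 for Cd79b, 0.17 for Cd22 and 0.24 for Pax5. Of the 4 tested CD8 T and NK cell markers, Eomes was higher (log2 fold change 1.61), while Cd8b1 and Cd8a stood at 0.22 and 0.10 and did not pass. Granulocyte markers had 0 of 1 tested called (Camp, 0.01), with Mpo and S100a9 below the intensity filter. No erythroid marker was bright enough to be tested, the brightest being Ermap, Epor and Slc4a1. Xist read 1630.2 and 2321 on CYLD KO arrays and 1306 and 1403 on WT arrays, and the Y-linked Kdm5d 268 and 127 on CYLD KO arrays and 271 and 275 on WT arrays, so CYLD KO replicate 2 stood apart in sex-linked genes as well. Pgk1, Pdha1 and Idh3g are the X-linked members, and the part of this difference in their values was not tested.

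Beyond the enzymes listed, other genes of glycolysis were followed as a background list. Of 17 tested, 1 was higher and 2 were lower, against 4.79% and 3.5% of all tested genes. Slc2a6, which encodes the transporter GLUT6, known from mouse macrophages as a lysosomal protein induced by inflammatory stimuli, read 443 and 456 on CYLD KO arrays and 112 and 99.1 on WT arrays (log2 fold change 2.08, adjusted p = 1.68e-31). It passed without each array in turn. Eno3, the muscle enolase, fell, reading 137 and 208 on CYLD KO arrays and 278 and 255 on WT arrays. Adpgk, the ADP-dependent glucokinase, fell as well, at 174 and 204 on CYLD KO arrays and 269.9 and 283 on WT arrays. Eno3 had an adjusted p of 0.212, 0.0612 and 0.177 without WT replicate 1, WT replicate 2 and CYLD KO replicate 1, and Adpgk 0.224, 0.307 and 0.0893.

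Among genes linked to the TCA cycle, 0 of 19 tested were higher and 2 were lower, against 4.79% and 3.5% of all tested genes. Me2, the mitochondrial malic enzyme, read 284 and 324 on CYLD KO arrays and 469 and 472 on WT arrays (log2 fold change -0.63, adjusted p = 0.00444). Suclg2, the GTP-forming subunit of succinyl-CoA ligase, read 161 and 143 on CYLD KO arrays and 244 and 203 on WT arrays (log2 fold change -0.55). The ATP-forming counterpart of Suclg2, Sucla2, chosen after its value was seen, had a log2 fold change of 0.38 and did not pass. Me2 had an adjusted p of 0.141 and 0.147 without WT replicates 1 and 2, and Suclg2 0.575 and 0.0903, and 0.12 without CYLD KO replicate 2.

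Regulators of these pathways included larger fold changes than any member had. Of 22 tested, 2 were higher and 1 was lower, against 4.79% and 3.5% of all tested genes. Epas1, which encodes the hypoxia factor subunit HIF-2 alpha, read 576 and 338 on CYLD KO arrays and 136 and 126 on WT arrays (log2 fold change 1.74). Bhlhe40, a transcriptional repressor found in activated T cells, read 1348 and 1222 on CYLD KO arrays and 343 and 313 on WT arrays (log2 fold change 1.97). Myc, a known activator of glycolytic genes in T cells, read 425 and 437 on CYLD KO arrays and 878 and 847 on WT arrays (log2 fold change -1.0). All 3 passed without each array in turn, with adjusted p-values of 4.43e-22, 3.55e-28 and 3.53e-07 over all arrays. Hif1a, the HIF-1 alpha gene, read 2309.8 and 2048 on CYLD KO arrays and 1704 and 1700.3 on WT arrays; it was higher without overlap but did not pass (log2 fold change 0.35, adjusted p = 0.215), apart from a fit with an intensity trend (adjusted p = 0.0161).

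**Figure D4:**
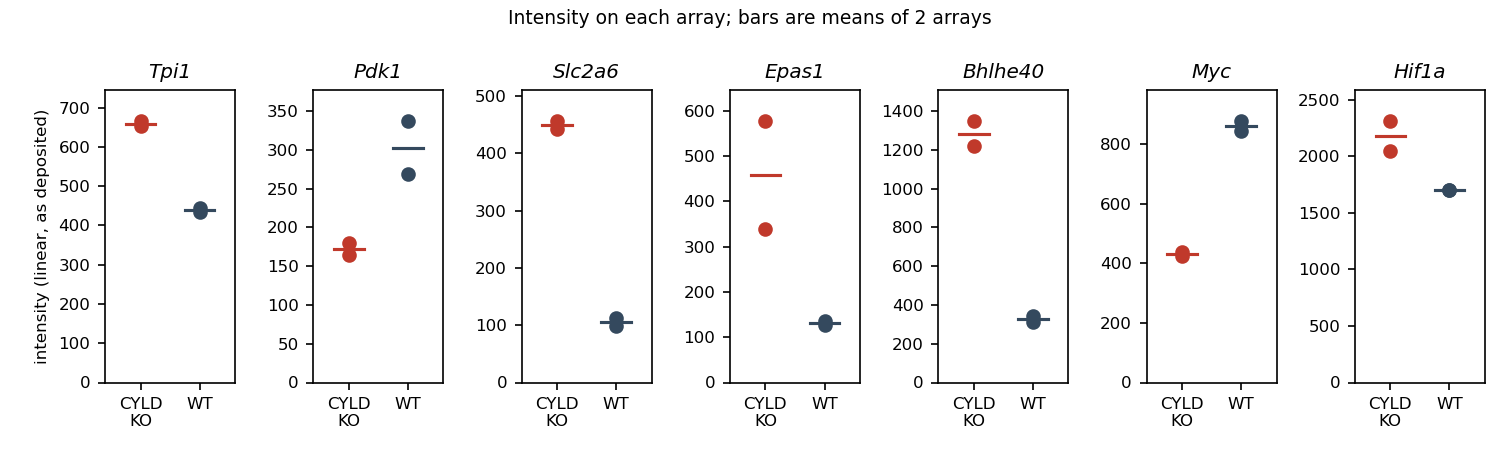
Intensity of Tpi1, Pdk1 and 5 linked genes on each array, linear and from 0, with CYLD KO at the left of each panel and WT at the right; points are arrays and bars the means of 2. The groups do not overlap in any panel; Pdk1 and Myc are lower in CYLD KO and the other 5 higher.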

How the data were processed

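The authors deposited intensities, 1 per probe set and array, on a linear scale; the sources used here do not name their summarising and scaling steps. Biotinylated cRNA was made from sorted Treg cells by Affymetrix's usual protocol, per the labels. Of 35557 probe sets, 21789 had exactly 1 gene symbol in the platform annotation, 1621 several and 12147 none listed. Intensities were converted to log2(value + 1), so folds of dim genes are slightly understated. Slc2a6 had a log2 fold change of 2.08 with 1 added and 2.09 with 0 added. Only genes whose mean log2 value exceeded 6.29, the 30th percentile, were fitted, 13956 in all. The fit was limma 3.58.1 in R 4.3.3 (lmFit, eBayes), CYLD KO against WT, without a replicate block. Benjamini-Hochberg adjustment ran over all fitted genes (threshold 0.05), and each adjusted p given is limma's. Prior degrees of freedom were infinite, so all genes share 1 standard error. The fit was tested on simulated data with 200 changed genes, where it recovered 51.2% of 1.5-fold and 98.8% of 2-fold changes. Members of near-identical families can share probes. Entrez identifiers of all 39 measured members matched RefSeq (GRCm38.p6), the source of chromosomes and promoters.

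Members, lists and tests were chosen with earlier results of these data known. Named are members past the threshold, the 3 with the largest absolute log2 fold change in each pathway step, isozymes, Hif1a, Myc and up to 4 genes past the threshold of each linked list, and the 3 brightest of each marker list; Foxp3 and the sex-linked genes are named besides. Alternatives covered the filter, scaling, pseudocount, variance model, array weights, probe set, replicate block, threshold and each left-out array.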

Additional observations from a re-analysis of the deposited data

How the results depend on the processing

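Counts of members higher and lower were 1 and 1 with no filter, over genes above the median, with quantile normalization, with equal array medians, with 16 or 0 added before the logarithm, with array weights, with the mean of probe sets, with RefSeq-matched probe sets (an alternative chosen after seeing the data) and with a replicate block. Under the intensity trend 2 were lower, Pdk1 and Hk1. With the threshold at 0.01 the counts were 0 and 1, and at 0.10 they were 1 and 2, with Ldhb added. Without pooling of variances limma called 0 members higher and 0 lower, and 0 of all genes, with 5 members and 1814 genes at an unadjusted p under 0.05; that fit has only 2 residual degrees of freedom per gene. Leaving out 1 array gave 0 to 3 members higher and 0 to 2 lower: 0 and 0 without WT replicate 1, 0 and 1 without WT replicate 2, 3 and 2 without CYLD KO replicate 1; over all genes the same fits called 289 and 118, 252 and 181, and 918 and 767, against 669 and 489 with every array. In such fits the lone array is assumed to vary like the other group. Hk1 turned to 0.29 with its RefSeq-matched probe set, and the uptake step's median to the same value. Leaving out 1 array moved the step medians of upper glycolysis between -0.0174 and 0.118 and of the lactate genes between -0.171 and 0.0509. Same-numbered arrays did not deviate together (correlation of deviations -0.0923 over genes). With 2 arrays per group this rests on 1 difference within each group, so it cannot decide whether the samples were paired. With the replicate block 603 genes were higher and 429 lower, against 669 and 489 without it. The calls of Tpi1 and Pdk1 held with the block, while that of P4ha1 did not (limma adjusted p = 0.0688). Dim genes such as Hk2, Aldoc, Eno2 and Idh1 lie near the low end of the intensity scale, which limits what their values show.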

Other observations

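Genes around pyruvate entry and the pentose phosphate branches gave no call outside the members, while 8.3% of all tested genes were called. Of 7 tested pyruvate entry genes, 0 were higher and 0 lower in limma, and likewise 0 and 0 of 7 tested pentose phosphate genes; without CYLD KO replicate 1, 1 of the pentose phosphate genes was lower. Besides Pdk1, log2 fold changes were 0.14 for Pdk2, 0.23 for Pdk3 and 0.01 for Pdk4, which was too dim to test; these kinase genes were picked knowing their values.

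Of 9 tested hypoxia and HIF target genes outside glycolysis, 0 were higher and 1 was lower in CYLD KO. Among all tested genes 4.79% were higher and 3.5% lower. The 13 measured had a median log2 fold change of -0.13. The lower one was P4ha1, a collagen prolyl hydroxylase subunit, which read 365 and 306 on CYLD KO arrays and 453 and 488 on WT arrays (log2 fold change -0.49, limma adjusted p = 0.047). It did not pass without WT replicate 1 (adjusted p = 0.303), without WT replicate 2 (0.44) or without CYLD KO replicate 2 (0.262), with no filter (0.0519) or with equal array medians (0.0777). Bnip3, a mitophagy receptor gene, stood at -0.07, and Vegfa, the vascular growth factor gene, at 0.04, below the intensity filter; both were picked knowing their values.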
